A study of Mus musculus with 7 samples.

Results

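The 10 genes described here encode transcription factors that are known as markers or regulators of the mammary epithelial lineages: Elf5, Ehf, Gata3, Foxa1, Tbx3, Trp63, Snai2, Sox10, Sox9 and Runx1. They were chosen by symbol, and all 10 were rows of a single-cell count matrix of 27998 genes. The cells came from the #4 mammary glands of nulliparous female mice taken at diestrus. All mice had mixed FVB, 129 and C57BL/6J genetics, and the labels name no allele or agent in either group. The 3 young mice (Young A, B and C) were 3 to 4 months old and the 4 aged mice (Aged A, B, C and D) 13 to 14 months old. The glands were dissociated with the lymph nodes removed, and 13684 cells carried 1 of 13 cell type names given by the authors.

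The mammary epithelium is a bilayer of luminal cells, which face the duct, and contractile myoepithelial cells, which lie on the basement membrane. Luminal cells are divided into alveolar (AV) cells, which can give rise to milk-secreting cells, and hormone-sensing (HS) cells, which carry estrogen and progesterone receptors. A lineage transcription factor binds the control regions of the genes that set a cell type apart, so its own expression is used to recognize the lineage. The authors also named a small class of luminal cells with genes of both luminal types, HS-AV cells.

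Each mouse was 1 library of 1264 to 2865 cells and 6652599 to 16999625 unique molecular identifiers (UMIs, each standing for 1 captured mRNA molecule), with a median of 4758 to 7110 UMIs per cell. UMIs were summed per mouse and cell type, and levels are given as CPM, the UMIs of a gene scaled to a sum of 1e6. The mouse is the replicate. Barcodes of all 6372 cells from young mice came in 2 parts of 8 bases, and those of all 7312 cells from aged mice in 1 run of 16 bases, so a change with age cannot be told apart from a change in how the libraries were processed. More than 1 library held 101 of 13583 barcodes (0.744%). The deposited types carried their defining markers: the summed level of 5 AV markers was 15079 to 25136 CPM in AV cells and 310.5 to 1062 CPM in HS cells. The summed level of 4 myoepithelial markers was 11135 to 20257 CPM in myoepithelial cells and at most 151.1 CPM in AV and HS cells. Because a cell type was named from the expression of the same cells, differences between types are given as a description without a test.

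Elf5 and Ehf, related factors of the ETS family, are neighbours on chromosome 2. On GRCm38, Ehf spans chr2:103263433-103303278 on the minus strand and Elf5 chr2:103411688-103450989 on the plus strand, 108409 bases apart. Trp63 (chr16:25683763-25892102), Snai2 (chr16:14705852-14709385) and Runx1 (chr16:92601466-92826149) lie on chromosome 16, far from each other. Gata3 is at chr2:9857078-9890034, Foxa1 at chr12:57540628-57546916, Tbx3 at chr5:119670669-119684724, Sox10 at chr15:79154908-79165240 and Sox9 at chr11:112782224-112787760. The reads come from the 3′ ends of transcripts, so starts and isoforms of a gene, such as the long and short forms of Trp63, share 1 count.

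Elf5 and Foxa1 were the pair that differed most in opposite directions between the luminal types, and the sequence upstream of their starts is therefore shown. These are the 250 bases before each start, 5′ to 3′, from RefSeq on GRCm38.p6, at chr2:103411848-103412097 and chr2:103423818-103424067 (both plus strand) for the 2 starts of Elf5 and at chr12:57546112-57546361 (minus strand) for Foxa1. The RefSeq starts used here lie inside the gene spans given above, which are from GENCODE. All 3 windows therefore fall within those spans and not upstream of them. Capitals mark matches to a motif searched on both strands.
Elf5, first start: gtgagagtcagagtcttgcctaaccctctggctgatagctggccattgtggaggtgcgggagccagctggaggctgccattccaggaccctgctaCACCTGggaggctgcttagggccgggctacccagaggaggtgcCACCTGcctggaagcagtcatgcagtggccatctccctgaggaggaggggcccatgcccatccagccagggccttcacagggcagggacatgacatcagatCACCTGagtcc
Elf5, second start: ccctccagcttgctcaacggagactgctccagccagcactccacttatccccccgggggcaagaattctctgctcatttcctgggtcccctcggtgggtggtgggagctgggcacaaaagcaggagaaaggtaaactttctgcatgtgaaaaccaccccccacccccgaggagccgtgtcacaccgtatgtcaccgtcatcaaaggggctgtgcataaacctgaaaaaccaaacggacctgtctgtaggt
Foxa1: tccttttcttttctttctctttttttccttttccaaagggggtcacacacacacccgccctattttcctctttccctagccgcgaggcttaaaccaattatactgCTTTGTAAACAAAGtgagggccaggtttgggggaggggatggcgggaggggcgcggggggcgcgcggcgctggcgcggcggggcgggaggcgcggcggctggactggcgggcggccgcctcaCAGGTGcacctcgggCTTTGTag
The capitals in the first Elf5 window are 3 copies of an E-box of the kind bound by Snai2, searched as CAGGTG. That motif was found in 17.2% of 32851 windows of this length, and 3 or more copies in 0.247%. The Foxa1 window held 1 match to the forkhead motif that FOXA proteins recognize, searched as TGTTTAC, which was found in 3.17% of windows. It overlapped 2 of the 3 matches to the SOX motif, which was searched as ACAAAG and found in 16.5% of windows, and the window also held 1 copy of the E-box. No match in any of the 3 windows was found for the RUNX motif, searched as TGTGGT and held by 14% of windows. The same was true of the ETS motif, searched as CGGAAG and held by 13.6% of windows. The motif of GATA factors, searched as AGATAA, was held by 9.99% of windows and that of STAT factors, searched as TTCNNNGAA, by 7.02%, but again by none of the 3. A match is a run of letters and no measurement of binding.

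Elf5 is a regulator of alveolar differentiation, and Ehf is an epithelial ETS factor. Elf5 was high in AV cells alone. In AV cells its level was 178.3, 224.8 and 206.2 CPM in Young A, B and C and 316.6, 321.8, 343.4 and 327.5 CPM in Aged A, B, C and D. In HS cells it was 15.3, 18.04 and 16.83 CPM in the young mice and 6.503, 5.84, 5.434 and 15.38 CPM in the aged mice. The lowest AV value was thus far above the highest HS value, and the mean paired difference was 4.51 ± 1.03 on the log2 scale with 1 CPM added (SD, n = 7 mice). The mean AV level of 274.1 CPM was followed by 21.87 CPM in HS-AV cells and 14 CPM in myoepithelial cells, and types below AV in this order overlapped between neighbours.

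Among the members, Ehf had the profile most like that of Elf5. It stood at 102.1 to 154.7 CPM in young and 154.7 to 234.4 CPM in aged AV cells, and at 4.076 to 28.45 CPM in HS cells, a mean difference of 3.64 ± 1.01 on the log2 scale. Over the 58 sums of a mouse and type with at least 10 cells, Pearson's r of log2 levels between Ehf and Elf5 was 0.80, and Elf5 was the gene most like Ehf among 7380 candidates. The genes most like Elf5 were Csn3 (0.85), which encodes kappa-casein, Plb1 (0.82) and Rhov (0.81). Sums of 1 mouse share a library and sums of 1 type share an identity, so these r values are descriptions.

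Sox10, a SOX factor known from neural crest and from mammary progenitor-like cells, and its relative Sox9 followed different patterns. Sox10 was at 40.97 to 74.44 CPM in AV cells and 33.84 to 65.23 CPM in myoepithelial cells, which overlapped, but at only 0 to 6.503 CPM in HS cells. The 2 cell types that shared Sox10 therefore lie in different layers of the duct. Sox9 was found in all epithelial types: it averaged 426.4 CPM in AV, 352.7 CPM in HS and 232.1 CPM in myoepithelial cells, and 32.12 CPM in fibroblasts. Outside the epithelium its highest mean was 114.4 CPM in Ma macrophages (78 UMIs, 3 young mice). There the summed AV markers were 771.4 to 1651 CPM and the summed HS markers 156.5 to 432.4 CPM. The part of epithelial RNA in this level was not tested. The genes most similar to Sox9 were Krt8 (0.86) and Epcam (0.83), an epithelial keratin and adhesion protein, whereas those of Sox10 were Nrtn and Lcn2 (both 0.88).

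Foxa1 opens chromatin for the estrogen receptor, and Tbx3 is a T-box repressor needed for mammary development. Foxa1 was the converse of Elf5. In HS cells it was 107.5, 70.03 and 67.99 CPM in Young A, B and C and 94.29, 132.4, 133.1 and 93.45 CPM in Aged A, B, C and D. In AV cells it was 12.12, 8.993 and 14.88 CPM in the young mice and 12.01, 3.788, 4.5 and 3.545 CPM in the aged mice, so the types did not overlap. The paired difference of AV from HS was -3.52 ± 1.05 for Foxa1 and -2.91 ± 1.00 for Tbx3 (log2, SD, n = 7). Unlike Foxa1, Tbx3 was not restricted to the luminal HS lineage: it averaged 53.1 CPM in HS cells, 41 CPM in fibroblasts, 40.99 CPM in vascular endothelial cells and 39 CPM in pericytes. Over all 7 mice the ranges of these types overlapped, but the order of HS cells and fibroblasts turned with age. In young mice Tbx3 was 51.46 to 87.08 CPM in HS cells and 6.913 to 13.47 CPM in fibroblasts, without overlap. In aged mice it was 27.21 to 51.21 CPM in HS cells and 37.99 to 100.6 CPM in fibroblasts, and fibroblasts were higher in every aged mouse.

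Gata3, which is needed to maintain luminal cells, differed little between the luminal types. It averaged 209.4 CPM in HS, 162.5 CPM in AV and 100.4 CPM in myoepithelial cells, and the AV level was lower than the HS level in 6 of 7 mice by a mean of 0.36 ± 0.30 (log2). Its most similar gene was Cdh1 (0.88), which encodes E-cadherin. Outside the epithelium Gata3 stood at 7.771 CPM in fibroblasts and at 118.1 CPM in T and B cells (0 to 280.2 CPM over 7 mice, 50 UMIs). It is known as a regulator of T helper cells, but the authors describe most of these cells as CD8 T cells. The 5 AV markers in T and B cells summed to 59.14 to 710.3 CPM in young and 682.2 to 10928 CPM in aged mice. The part of epithelial RNA in this Gata3 level was not tested.

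Trp63, which encodes the basal regulator p63, Snai2, which encodes the repressor Slug, and Runx1, a RUNX factor, were highest in myoepithelial cells. Trp63 was 32.1, 34.41 and 55.19 CPM in Young A, B and C and 16.54, 19.98, 29.23 and 22.82 CPM in Aged A, B, C and D. Outside myoepithelial cells its mean was at most 2.355 CPM in any type. Trp63 was thus nearly restricted to 1 type, with no overlap between myoepithelial cells and fibroblasts, the next type. Snai2 averaged 30.62 CPM in myoepithelial cells but also 13.72 CPM in pericytes, 10.64 CPM in vascular endothelial cells and 9.376 CPM in fibroblasts, against 0.679 CPM in AV and 0.2207 CPM in HS cells. Runx1 was broader: 434.1 CPM in myoepithelial, 203.8 CPM in HS and 94.08 CPM in AV cells, and it was higher in HS than in AV cells in 7 of 7 mice. Genes most like Trp63 were Speer4e (0.89) and Krt5 (0.85), the basal keratin, and the gene most like Runx1 was Sfn (0.83).

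The 5 immune types and the lymphatic endothelial cells held few cells, and most members rested on few UMIs there. Elf5, Foxa1, Trp63, Snai2 and Sox10 had at most 5 UMIs in any of these types. Ehf had 0 to 13 UMIs in each, and Tbx3 0 to 21, with its highest mean of 60.03 CPM in NK cells resting on 8 UMIs. Runx1 averaged 53.99 to 109.1 CPM over these types, Sox9 13.97 to 114.4 CPM and Gata3 0 to 118.1 CPM.

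**Figure D1:**
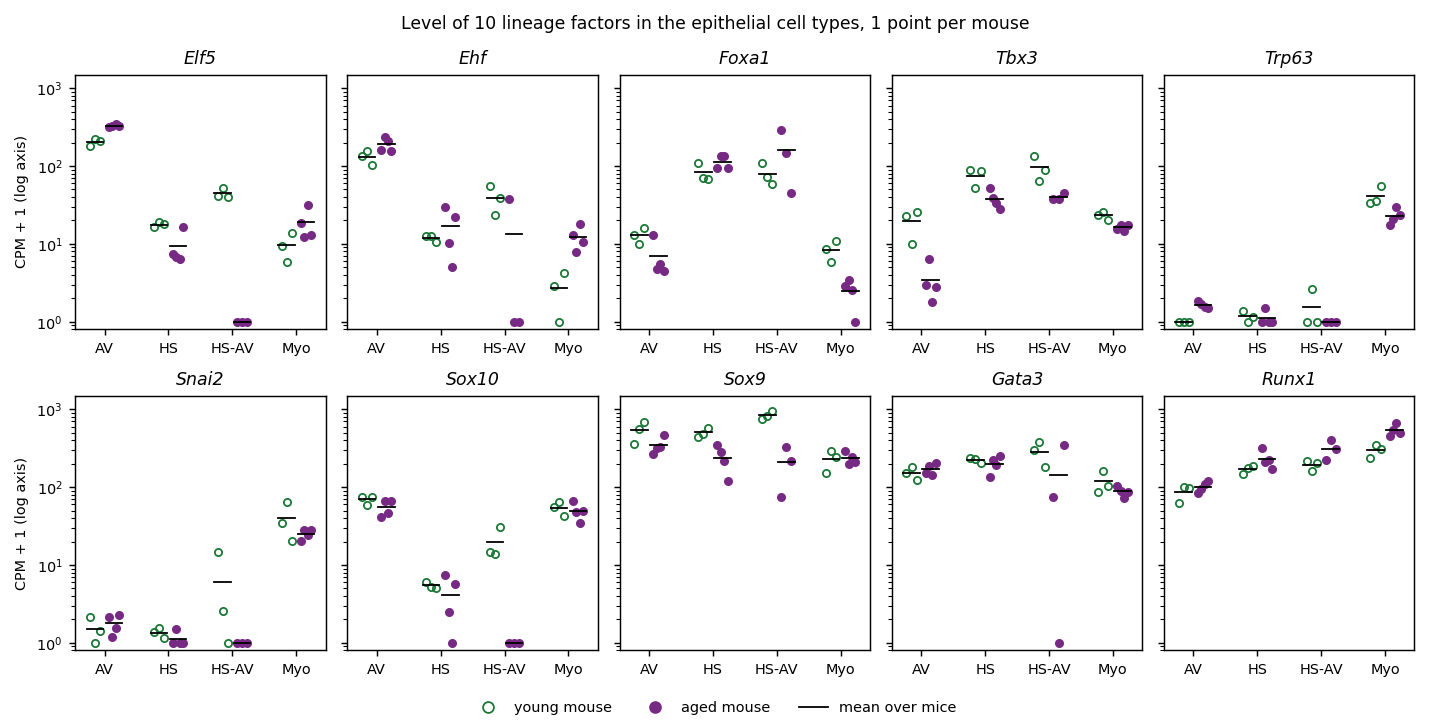
Level of each factor in AV, HS, HS-AV and myoepithelial (Myo) cells as CPM plus 1 on a log axis, 1 point per mouse with at least 3 cells of the type, open green for young and filled purple for aged mice, with a line at the mean. Elf5 and Ehf stand high in AV, Foxa1 and Tbx3 in HS and HS-AV, Trp63 and Snai2 in myoepithelial cells, whereas Sox9, Gata3 and Runx1 are found in all 4; the aged HS-AV points rest on 4 to 6 cells each.

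A difference of at least 2-fold in every mouse was counted for each pair of types among genes with a mean of at least 10 CPM in either type. Elf5, Ehf and Sox10 were higher in AV than in HS cells by this rule, as were 4.84% of 7123 genes, and Foxa1 and Tbx3 were higher in HS cells, as were 5.87%. Elf5 and Ehf were higher in AV than in myoepithelial cells (4.61% of 7183 genes), and Trp63, Snai2 and Runx1 were lower (5.75%). Foxa1 was higher in HS than in myoepithelial cells (9.25% of 7517 genes), and Trp63, Snai2 and Sox10 were lower (8.17%). Gata3 and Sox9 passed in none of these 3 pairs.

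None of the 273 HS-AV cells was called a doublet. As only 0.533% of all 13684 cells were called, 0 calls among so few cells do not show that the class is free of doublets. The HS-AV cells were few: 12, 130 and 115 cells in Young A, B and C, 6, 6 and 4 cells in Aged A, B and D, and 0 in Aged C. In the young mice the HS factors in these cells stood near their HS level, with Foxa1 at 79.07 CPM against 81.83 CPM in HS cells and Tbx3 at 95.84 against 74.4 CPM. The AV factors were intermediate. Elf5 was 40.48, 51.25 and 39.5 CPM in HS-AV cells of Young A, B and C, above HS cells of the same mice in each, by a mean of 1.33 ± 0.14 on the log2 scale, and below their AV cells by 2.19 ± 0.14. Sox10 and Ehf showed the same order of means, with 18.76 and 38.18 CPM in HS-AV cells, 4.477 and 10.94 CPM in HS cells and 68.65 and 130.6 CPM in AV cells. The summed AV markers in HS-AV cells of young mice, 2913 to 5876 CPM, also lay between those of HS (433.5 to 879.9 CPM) and AV cells (15079 to 22335 CPM).

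Among genes with 10 CPM, Elf5 and Sox10 were at least 2-fold higher in HS-AV than in HS cells of every young mouse, as were 2.15% of 7225 genes, while 0 members were 2-fold lower (0.291%). Against AV cells, Foxa1 and Tbx3 were higher (5.47% of 7483 genes) and Elf5, Ehf and Sox10 lower (3.41%). The Elf5 and Sox10 calls against HS cells were lost when 10 CPM were added in place of 1 CPM. In Young A both levels rest on very few UMIs. Its 12 HS-AV cells held 74114 UMIs in all, with a UMI of Elf5 in 25% and of Sox10 in 8.333% of the cells. Sox9 was highest in this class in the young mice: 755.6, 808.8 and 956.1 CPM, against 444.9, 484.4 and 583 CPM in their HS cells, a paired difference of 0.74 ± 0.03 (log2, n = 3). Sox9 belongs to a list that the study itself selected for HS-AV cells on these samples, as Elf5 and Ehf do for AV and Runx1 for myoepithelial cells. In the aged mice the summed AV markers of HS-AV cells were 304.1 to 513 CPM, below those of the young mice and near those of aged HS cells (310.5 to 1062 CPM). There Elf5 and Sox10 had 0 UMIs in 16 HS-AV cells with 77573 UMIs, which allows a level of up to 38.7 CPM. This limit lies above the young mean of Sox10 (18.76 CPM), so a loss of Sox10 could not be seen at this depth. It lies only slightly below the young mean of Elf5 (43.74 CPM), and it covers counting error only.

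Shares of cells were compared after drawing 2000 UMIs from every cell, a number that 0 cells failed to reach. A UMI of Elf5 was then found in 38.67% ± 5.799 of AV cells (SD over 7 mice, 71.89% with all UMIs), 2.408% of HS cells and 2.144% of myoepithelial cells. Among fibroblasts, which should lack it, the pooled share was 0.4014%, at a median of 4414 UMIs per cell before thinning against 6632 in AV and 7277 in HS cells. Foxa1 was found in 18.06% ± 5.789 of HS cells and 1.54% of AV cells, and Runx1 in 52.95% ± 13.35 of myoepithelial cells and 15.97% of AV cells. Trp63 and Snai2 were found in only 4.514% and 5.327% of myoepithelial cells, so most cells of the type known for p63 had no UMI of it at this depth. In AV cells the Elf5 share was 29.86%, 34.62% and 34.08% in the young and 41.28%, 43.36%, 45.54% and 41.92% in the aged mice, without overlap.

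Single cells with UMIs of factors of opposite lineages were rare. With all UMIs, Elf5 and Foxa1 were found together in 113 of 4820 AV cells (2.344%), 72 of 2138 HS cells (3.368%) and 16 of 273 HS-AV cells (5.861%). Averaged over mice, the share was 2.342% in AV, 3.207% in HS and 3.446% in HS-AV cells. The product of the shares of each factor gave 3.024%, 3.306% and 3.664%. The low shares alone therefore do not show that the 2 factors exclude each other. Elf5 and Ehf were found together in 2417 AV cells (50.15%), with a mean over mice of 43.29% against a product of 41.56%. Elf5 and Trp63 occurred together in 8 of 1670 myoepithelial cells and 13 AV cells. Their means over mice were 0.559% and 0.1893%, against products of 0.5585% and 0.1954%. Leaving out 73 cells called doublets left 112 AV cells, 72 HS cells and 16 HS-AV cells with Elf5 and Foxa1, but it cut the myoepithelial cells with Elf5 and Ehf from 18 to 9.

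**Figure D2:**
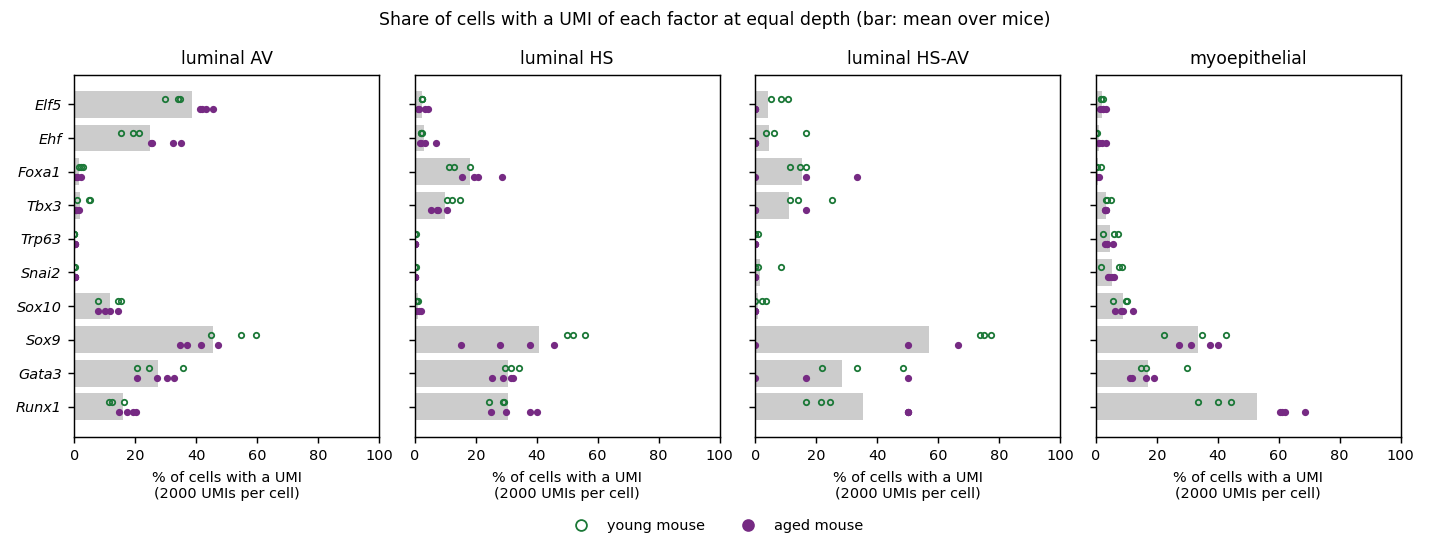
Percentage of cells that held a UMI of each factor after thinning every cell to 2000 UMIs, in the 4 epithelial classes; bars are means over mice, open green points young and filled purple points aged mice. Elf5 reaches 38.67% on average in AV cells and Runx1 52.95% in myoepithelial cells, whereas Trp63 and Snai2 average 4.514% and 5.327% there.

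Age was tested in each type with edgeR's quasi-likelihood test over all genes with enough counts. A change is called where it reached 1.5-fold and its p, adjusted by Benjamini-Hochberg, lay under 0.05. Fold changes are on the log2 scale, aged over young, with standard errors, and an interval is the 95% interval. The fits scale each sum by a TMM factor, which the printed CPM do not include. A fitted fold therefore need not equal the ratio of the printed CPM. In a bulk sum, fewer cells with a transcript and less transcript per cell cannot be told apart.

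In AV cells, 8 of the 10 members were tested, and Elf5 rose and Tbx3 fell. Elf5 rose by 0.96 ± 0.18 (1.95-fold, adjusted p = 0.0120 by edgeR), and every aged mouse was above every young mouse. In CPM without the TMM factor the rise was smaller, from a mean of 203.1 in young to 327.3 in aged mice. Among 11012 genes, 2.90% were called higher and 3.26% lower, and the members called were 1 in each direction. The rise was close to the threshold: the adjusted p was 0.0593 with thinned cells, and 0.0601 without Young C. Ehf stood at 0.81 ± 0.22, with the highest young and the lowest aged mouse both at 154.7 CPM, and missed the threshold (adjusted p = 0.0519, edgeR). The 13 other alveolar and luminal factors, among them Elf3, Klf5 and Stat5a, were all tested in AV cells and 0 were called, with a median change of 0.23 beside 0.02 over all genes. The other members tested in AV cells were not called either: Gata3 stood at 0.47 ± 0.21, Runx1 at 0.52 ± 0.24, Sox10 at -0.08 ± 0.22 and Sox9 at -0.36 ± 0.28.

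Tbx3 in AV cells was 21.93, 8.993 and 24.38 CPM in Young A, B and C and 1.974, 5.383, 0.8182 and 1.772 CPM in Aged A, B, C and D. All aged mice were below all young mice, and the change was -2.68 ± 0.50 (adjusted p = 0.0137, edgeR; 0.0593 without Young A and 0.0879 without Young C). Among the other hormone-sensing factors, 6 of 8 were tested in AV cells, 0 rose and 3 fell: Pgr, the progesterone receptor, by 2.99, Esr1, the estrogen receptor, by 1.68 and Cited1, a co-activator, by 1.60. The summed level of 5 HS markers in AV cells, which include Pgr, Esr1 and Cited1, moved with them, from 192.7 to 277 CPM in young to 29.97 to 39.27 CPM in aged mice, with 0 markers at 0 in either group. Over the same mice 4 fibroblast markers in AV cells went from 30.58 to 178.3 CPM to 1.227 to 5.594 CPM. The part of RNA from other cells in the Tbx3 change was not tested. Foxa1 in AV cells changed by -0.84 ± 0.46 and was not called (adjusted p = 0.302; 0.0242 without Aged A, by edgeR).

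In HS cells, 7 members were tested and Tbx3 fell. It was 87.08, 51.46 and 84.66 CPM in the young and 51.21, 37.47, 32.61 and 27.21 CPM in the aged mice, with the lowest young mouse just above the highest aged mouse. The change was -0.88 ± 0.21 (adjusted p = 0.0372, edgeR), and it was not called with thinned cells (0.163) or without Young A (0.110), Young C (0.159), Aged C (0.084) or Aged D (0.0777). The 4 fibroblast markers in HS cells went from 11.14 to 84.53 CPM to 0 to 11.38 CPM. The 3 endothelial markers there went from 35.95 to 49.34 CPM to 23.66 to 42.27 CPM. Tbx3 in the young mice was at most 13.47 CPM in fibroblasts and 57.7 to 71.47 CPM in vascular endothelial cells. The part of RNA from other cells in the HS fall was not tested. Among 8457 genes 3.93% were called higher and 2.33% lower. Sox9, in contrast, went from 444.9, 484.4 and 583 CPM to 343, 279.8, 213.3 and 120.7 CPM, with no overlap. Its change of -0.98 ± 0.26 just missed the threshold (adjusted p = 0.0523 by edgeR, 0.0148 by DESeq2), and its share of HS cells at equal depth went from 49.82% to 55.79% in young to 15.22% to 45.68% in aged mice. Foxa1 in HS cells stood at 0.61 ± 0.21 and Elf5 at -0.96 ± 0.35, and neither was called (adjusted p = 0.113 and 0.118, edgeR). Runx1 (0.54 ± 0.19) and Ehf (0.65 ± 0.42) were not called either. Gata3 had an interval of -0.65 to 0.59 around a change of -0.03. Of the other hormone-sensing factors 7 of 8 were tested in HS cells and 0 were called.

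In myoepithelial cells, 9 members were tested, 2 rose and 0 fell, in a type where 12.8% of 6740 genes were called higher and 14.8% lower. Runx1 was 236.1, 349 and 308.4 CPM in Young A, B and C and 458.4, 538, 658.4 and 490.1 CPM in Aged A, B, C and D. The aged mice were all higher, and the change was 0.98 ± 0.21 (adjusted p = 0.00231, edgeR). It was called in all 16 alternatives, with adjusted p-values between 2.57e-05 and 0.0261. The share of myoepithelial cells with a Runx1 UMI at equal depth likewise went from 33.69%, 40% and 44.44% to 62.21%, 61.18%, 68.8% and 60.29%. The summed level of 4 immune markers in these cells was 167.1 to 253.2 CPM in young and 35.13 to 73.02 CPM in aged mice. The part of RNA from other cells in the myoepithelial Runx1 rise was not tested.

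Ehf rose in myoepithelial cells by 2.45 ± 0.69 (adjusted p = 0.0141, edgeR), from a low level: 1.888, 0 and 3.246 CPM in the young mice, or 3 UMIs in all, and 6.889 to 16.92 CPM in the aged mice. Its level in aged myoepithelial cells stayed far below the 154.7 CPM that was the lowest in aged AV cells. It passed the filter on low counts in 10 of 16 alternatives, not without the cells called doublets or with thinned cells, and was not called without Young A (adjusted p = 0.14, edgeR). The summed AV markers of myoepithelial cells were 1334 to 1418 CPM in young mice (median 1347) and 1013 to 1649 CPM in aged mice (median 1344). The part of RNA from other cells in the Ehf rise was not tested. Elf5 in myoepithelial cells, at 0.92 ± 0.49, was not called (adjusted p = 0.168, edgeR).

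The basal factors were lower on average in aged myoepithelial cells without being called. Trp63 changed by -0.74 ± 0.31, with all aged mice below all young mice and an adjusted p of 0.0830 (edgeR), and Snai2 by -0.43 ± 0.33 (adjusted p = 0.350). Sox10 (-0.01, interval -0.66 to 0.65), Sox9 (0.20, -0.36 to 0.76), Gata3 (-0.21, -0.79 to 0.37) and Tbx3 (-0.39, -1.20 to 0.41) had intervals that span 0. All 7 p63 target genes on a list were tested, 4 fell and 1 rose, with a median change of -0.68 beside 0.01 over all genes. Jag2, a Notch ligand, fell by 2.00, and the others that fell were Itgb4, a hemidesmosome integrin (-1.79), Col17a1, a hemidesmosome collagen (-0.89) and Krt5 (-0.68), whereas Dst, a cytoskeletal linker, rose by 0.73. Of 10 other basal and mesenchymal factors, 4 were tested and 2 fell, Mef2c (-1.89) and Srf (-1.14), which are both known from muscle genes. Of the 13 other alveolar and luminal factors, 9 were tested in myoepithelial cells, 2 rose and 2 fell: the epithelial factors Elf3 (1.87) and Ovol1 (1.63) rose, Tfap2c fell (-0.80), and Nfib fell to 0.500 of its young level. Sox4, a SOX relative of the members, rose by 1.93.

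**Figure D3:**
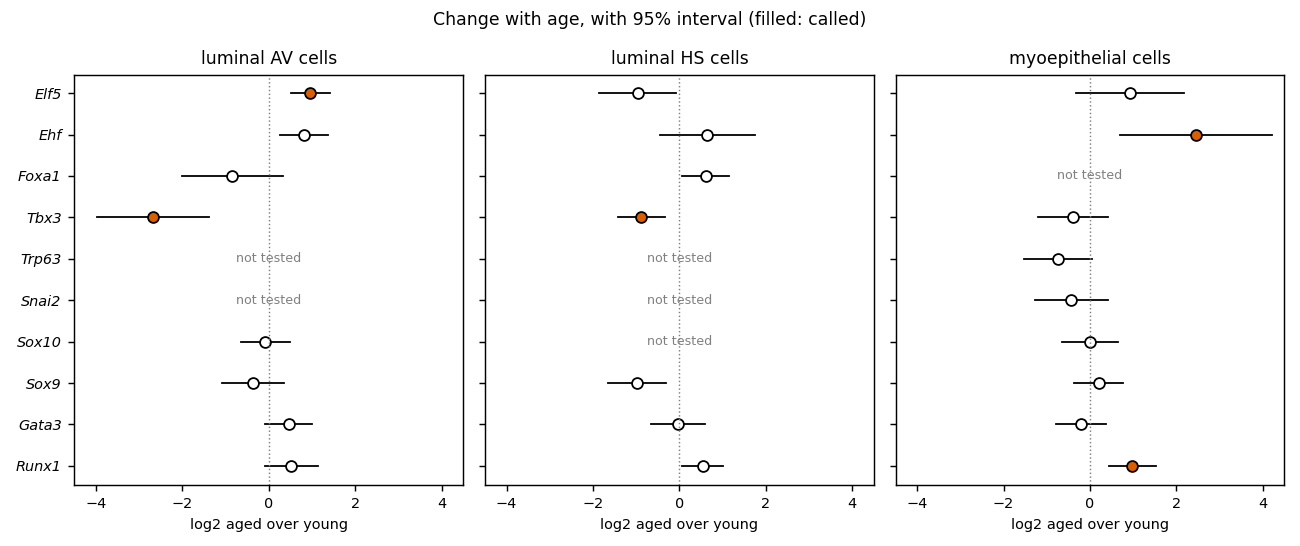
Change with age on the log2 scale (aged over young) of each factor in AV, HS and myoepithelial cells from the edgeR fits. Lines are 95% intervals on 5 residual degrees of freedom, and called changes are filled. Elf5 (0.96) and Tbx3 (-2.68) in AV cells, Tbx3 (-0.88) in HS cells and Ehf (2.45) and Runx1 (0.98) in myoepithelial cells are filled; factors under the filter on low counts are marked as not tested.

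Whether an age change differed between epithelial types was tested with 1 edgeR fit of the 3 types with the mouse as a term, in which 10079 genes and all 10 members were tested. The age change of Elf5 was more positive in AV than in HS cells by 2.00 ± 0.35 (adjusted p = 0.00140, edgeR), and that of Tbx3 more negative by 1.66 ± 0.39 (-1.66, adjusted p = 0.0208). These were the only members called in this pair, beside 0.873% of genes in the positive and 1.61% in the negative direction. The Elf5 difference was not called with thinned cells (1.09, adjusted p = 0.349), nor was that of Tbx3 (-1.54, 0.129), which was also not called without Young A (0.0715), Young C (0.189) or Aged A (0.068). Foxa1 stood at -1.43 ± 0.47 and was not called (adjusted p = 0.114, edgeR). The same fit called Pgr (-2.88), Cited1 (-2.08) and Esr1 (-1.80) more negative in AV than in HS cells and Sox4 more positive (1.81).

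Between AV and myoepithelial cells, Tbx3 changed more negatively in AV cells (-2.33 ± 0.48, adjusted p = 0.00338 by edgeR), and Trp63 was called in the positive direction, where 5.23% and 5.45% of genes were called positive and negative. The Trp63 call rests on counts near 0: AV cells held 0 Trp63 UMIs in 4708877 UMIs of the young and 19 in 29650290 of the aged mice, which are 0.641 CPM beside a limit of 0.637 CPM for 0 UMIs, so no fold is given. It was also lost in 9 of 15 alternatives, with an adjusted p of 0.0986 by DESeq2 and 0.380 with thinned cells. Between HS and myoepithelial cells, Elf5 (-1.94 ± 0.52, adjusted p = 0.0230) and Sox9 (-1.33 ± 0.36, adjusted p = 0.0242) changed more negatively in HS cells by edgeR, beside 3.19% of genes called positive and 4.98% negative. The Elf5 difference was -0.33 with thinned cells (adjusted p = 0.863) and -1.45 without the cells called doublets (0.118). Neither was called without Young A, Young C or Aged C, and Elf5 was also not called without Young B (0.0717) or Aged A (0.0619).

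Outside the epithelium, Tbx3 and Runx1 were the members called. In fibroblasts 2 members passed the filter, and Tbx3 rose by 2.55 ± 0.33 (adjusted p = 0.00121, edgeR), where 2.07% of 5513 genes were called higher and 1.11% lower. It was 13.47, 6.913 and 11.93 CPM in the young mice and 58.61, 57.53, 37.99 and 100.6 CPM in the aged mice, with no overlap. The aged values rest on 34, 10, 3 and 11 UMIs, from 121, 41, 15 and 17 fibroblasts. In vascular endothelial cells Tbx3 instead fell, from 65.59, 57.7 and 71.47 CPM to 29.66, 18.16, 19.61 and 24.76 CPM, by 1.13 ± 0.21 (-1.13, adjusted p = 0.00141, edgeR). The 3 pericyte markers in these cells went from 98.62 to 346.3 CPM to 5.587 to 66.85 CPM, and their part in the fall was not tested. The direction of the Tbx3 change was thus opposite in these stromal types, a difference that was not tested. In fibroblasts the summed AV markers were 223.5 to 603.2 CPM in young and 354.5 to 1947 CPM in aged mice. Tbx3 in the aged mice was at most 5.383 CPM in AV cells, 27.21 to 51.21 CPM in HS cells and 10.6 to 60.04 CPM in pericytes. The part of RNA from other cells in the fibroblast rise was not tested.

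Runx1 rose in vascular endothelial cells, from 4.372, 3.266 and 8.246 CPM to 18.01, 13.97, 20.5 and 23.49 CPM, by 2.38 ± 0.36 (adjusted p = 0.000319, edgeR), without overlap. In this type 6 members were tested and 14.7% of 7864 genes were called higher and 12.0% lower. The summed myoepithelial markers in these cells were 38.11 to 101.7 CPM in young and 79.32 to 218.4 CPM in aged mice. The summed level of 4 immune markers went from 198.2 to 599.5 CPM to 618.8 to 8701 CPM, without overlap, and Runx1 averaged between 53.99 and 109.1 CPM in the 5 immune types. The part of RNA from other cells in the Runx1 change was not tested. In pericytes 0 members passed the filter, while 7.19% of 2601 genes were called higher and 4.61% lower. Runx1 there was 0 to 10.55 CPM in young and 25.27 to 111.5 CPM in aged mice, beside 4 myoepithelial markers of 1116 to 1184 CPM and 3078 to 6856 CPM. Of these markers Acta2 is a contractile gene that pericytes also express, and Krt17, Krt14 and Krt5 are keratins. The part of each in this sum was not separated.

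**Figure D4:**
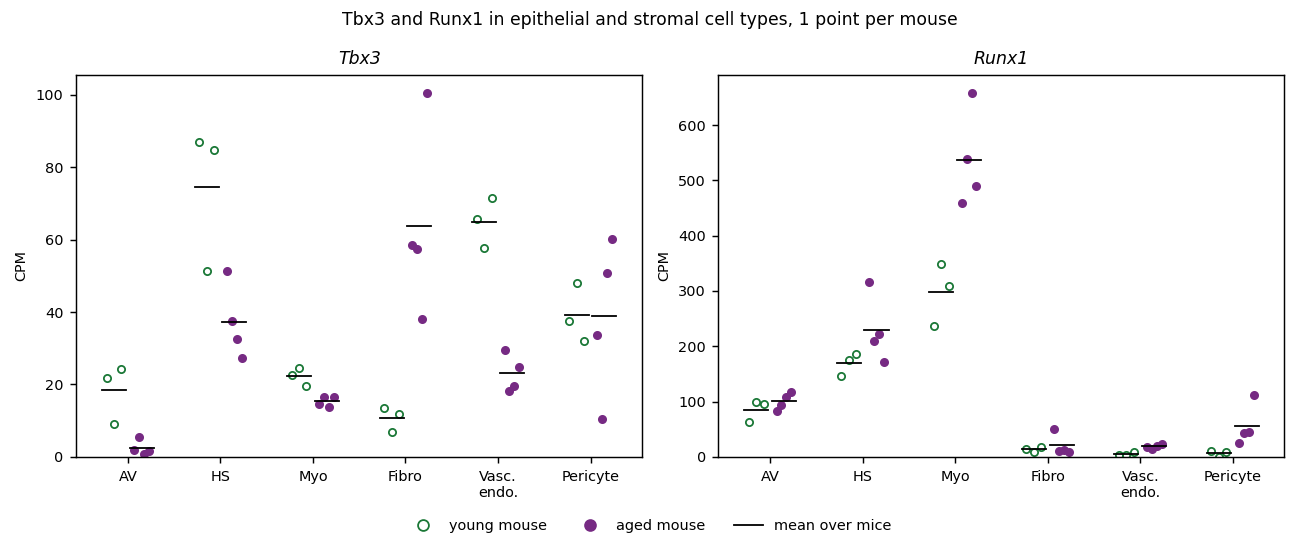
Level of Tbx3 and Runx1 in CPM, on linear axes, in AV, HS, myoepithelial (Myo), fibroblast, vascular endothelial and pericyte sums, 1 point per mouse, open green for young and filled purple for aged mice, with a line at the mean. Tbx3 is lower in aged AV, HS and vascular endothelial cells and higher in aged fibroblasts, and Runx1 is higher in every aged myoepithelial sum (458.4 to 658.4 CPM) than in the young ones (236.1 to 349 CPM).

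Among the relatives and partners of the members, 11 of 15 were tested in vascular endothelial cells, where 3 rose and 2 fell: Gata6 (2.52), Gata2 (0.90) and Sox4 (0.79) rose, and the endothelial SOX factors Sox18 (-1.77) and Sox17 (-1.17) fell. Sox4 was the relative called most often, higher in aged AV (0.88), myoepithelial (1.93), fibroblast (1.61) and vascular endothelial sums. In HS cells 6 relatives were tested and 0 were called, in fibroblasts 8 were tested with Sox4 as the single call, and in pericytes 6 were tested and Elf1 fell (-0.91).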

How the data were processed

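The authors made 1 library per mouse with 10x 3′ v2 chemistry, aligned it to mm10 with Cell Ranger 2.0, filtered the cells, and deposited unnormalized counts of UMIs, with a mouse and a cell type for each cell. Those counts and names were used as deposited. Counts were summed per mouse and type where a type had at least 3 cells (80 of 91 sums). Changes with age were fitted with edgeR 4.0.16 (filterByExpr, TMM, quasi-likelihood test) in 6 types, and differences of age changes in 1 fit of AV, HS and myoepithelial cells with the mouse as a term. Standard errors were derived from the log2 change and the F statistic, and intervals from these and a t quantile on 5 residual degrees of freedom. Calls required 1.5-fold and an adjusted p (Benjamini-Hochberg over all genes tested) below 0.05. Alternatives were DESeq2 1.42.0, RLE factors, no filter, at least 10 cells, no fold minimum, a block of the label letters, cells thinned to 2000 UMIs, no doublets (Scrublet in scanpy 1.11.5, expected rate 0.06, 73 cells or 0.533%, which were otherwise kept), no ribosomal protein and mitochondrial genes, and leaving out mice in turn. Simulated counts with 200 changed genes were used to test the scripts.

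The 10 members and the gene lists were chosen with earlier results of these data known. All 10 members are described in every type, fold changes are printed for members tested in the 3 main epithelial types and for called members elsewhere, at most 5 called genes are named per list and comparison, and the 3 genes most like a member are those with the highest Pearson r. The 6 pairs of members counted in single cells and the 7 motifs were chosen after the files were seen. Gene spans are from GENCODE vM21 on GRCm38, which is mm10, and upstream sequences from RefSeq, which held 4 of 10 members. All limits for 0 UMIs (3 UMIs) cover counting error only. Each library is a separate animal.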

Additional observations from a re-analysis of the deposited data

Results flagged for a closer look

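Among the 4 aged mice, 1 mouse stood apart from the others in 10 of 58 sets of a member and type, by its gap to the nearest mouse over the range. Those with more than a few UMIs were Elf5 in HS cells (Aged D at 15.38 CPM, the others 5.434 to 6.503), Foxa1 in AV cells (Aged A at 12.01, the others 3.545 to 4.5), Runx1 in fibroblasts (Aged A at 49.99, the others 9.143 to 12.66) and Elf5 in fibroblasts (Aged D at 64 from 7 UMIs, the others 0 to 10.34). The others rest on 1 to 3 UMIs: Ehf in pericytes (Aged B, 10.6 CPM), Foxa1 in fibroblasts (Aged A, 5.172) and pericytes (Aged B, 5.298), Trp63 in HS cells (Aged B, 0.4867) and fibroblasts (Aged C, 12.66) and Snai2 in HS cells (Aged B, 0.4867). Where the other aged mice held 0 UMIs, any UMI in the remaining mouse gives the largest possible gap over range. The count of 10 in 58 sets therefore cannot be set against a chance rate.

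The age change differed between epithelial types by the edgeR fit with the mouse as a term for Elf5 (2.00) and Tbx3 (-1.66) in AV against HS cells, for Tbx3 (-2.33) in AV against myoepithelial cells, and for Elf5 (-1.94) and Sox9 (-1.33) in HS against myoepithelial cells, all as differences of log2 changes. Trp63 was also called in AV against myoepithelial cells, but no young AV sum held a Trp63 UMI, so its fitted value of 4.84 depends on the prior count and is neither a fold nor a bound.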

How the results depend on the processing

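The label letters name different animals, and correlations of same-letter deviations from the group means ran from -0.17 to 0.07, so the letters do not pair the mice. With the letters as a replicate block, the members called with age were 2 in myoepithelial, 0 in HS, 1 in AV, 2 in vascular endothelial cells and 0 in fibroblasts, without Elf5 in AV (adjusted p = 0.0656) and Tbx3 in HS cells (0.149) and fibroblasts (0.0540). Counts also moved with thinned cells, to 1 in myoepithelial, 0 in HS and 1 in vascular endothelial cells, and to 0, 1 and 1 for the differences of AV against HS, AV against myoepithelial and HS against myoepithelial cells. Without doublets they were 1 in myoepithelial cells and 1 for HS against myoepithelial cells. HS cells gave 2 calls with RLE factors, 2 with DESeq2 and 3 without the filter. DESeq2 called 3 in AV cells and 3 for HS against myoepithelial cells. Without the filter pericytes gave 1 and AV against myoepithelial cells 1, and DESeq2 gave 1 for the latter.

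Leaving out 1 mouse at a time gave 1 to 2 calls in myoepithelial, 0 to 2 in HS, 0 to 3 in AV, 2 to 2 in vascular endothelial cells and 1 to 1 in fibroblasts. The differences gave 1 to 2 for AV against HS, 1 to 2 for AV against myoepithelial and 0 to 2 for HS against myoepithelial cells. Members 2-fold higher in every mouse numbered 1 to 2 for HS against myoepithelial cells when a mouse was left out and 2 with thinned cells. For HS-AV against HS cells they numbered 2 to 3, and 1 with thinned cells and 0 with 10 CPM added. For HS-AV against AV cells they numbered 2 to 3. Among the changes with age, signs turned for Sox10 in myoepithelial (0.12 without the filter, 0.16 thinned, -0.11 to 0.11 with a mouse left out) and AV cells (-0.23 to 0.02), Gata3 in myoepithelial (-0.44 to 0.02) and HS cells (-0.20 to 0.16), and Sox9 in myoepithelial cells (-0.07 to 0.38), none of which was called. Causes were not tested. Depth limits Trp63 and Snai2 outside myoepithelial cells and aged HS-AV cells.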
